A study of Homo sapiens with 40 samples.

Results

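The genes described here encode the adenylyl cyclases, the membrane enzymes that make cAMP from ATP, and GNAS, which encodes the stimulatory G protein subunit Gs alpha. Members were taken by gene symbol from the deposited expression table: 9 were named (ADCY1, ADCY3, ADCY4, ADCY5, ADCY6, ADCY7, ADCY8, ADCY9 and GNAS), and 7 of them had a row among its 15788 genes. ADCY4 and ADCY8 had no row and were not analysed here. The rule that picks the members uses gene names and no measured value. Levels are in TPM, a length-scaled share of a library's transcripts that the authors normalised further. A mean level of 1 TPM was required for testing, which 6 of the 7 met and ADCY5 did not.

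The libraries came from BEAS-2B, an immortalised line of human bronchial epithelial cells. All cells, controls included, were grown to confluence and kept overnight without serum before a treatment of 2 h. The 10 groups of 4 libraries were RNO (roflumilast N-oxide, a PDE4 inhibitor) at 1 uM, the EP4 agonist ONO-AE1-329 (ONO) at 0.1 nM, 1 nM and 1 uM, the β2-adrenoceptor agonist vilanterol at 100 nM, each of these 4 agonist treatments together with RNO at 1 uM, and vehicle. The labels do not say that the 4 replicates of a group were separate cultures, so p-values measure the spread between these libraries, which may be technical. All results come from 1 cell line.

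Agonist binding to a Gs-coupled receptor such as EP4 or the β2-adrenoceptor loads Gs alpha with GTP, and GTP-bound Gs alpha activates the membrane adenylyl cyclases. The cAMP they make activates protein kinase A and EPAC, and phosphodiesterases such as the PDE4 enzymes remove it. The cyclase isoforms share this response to Gs alpha and differ in other inputs: ADCY1, ADCY3 and ADCY8 respond to calmodulin, ADCY5 and ADCY6 are inhibited by Gi and by calcium, ADCY4 and ADCY7 are raised by G protein beta-gamma subunits, and ADCY9 stands apart in sequence and responds poorly to forskolin. In airway epithelium cAMP is known for its part in ciliary beating, ion secretion and the restraint of inflammatory genes.

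The transcripts of these genes moved little in 2 h. Against vehicle, ADCY9 was higher after vilanterol, vilanterol + RNO and ONO 1 uM + RNO (1.22-fold, 1.28-fold and 1.28-fold), and ADCY1 was higher after vilanterol and vilanterol + RNO (1.37-fold and 1.35-fold). These 5 calls were all that limma made in the main fit, which has no term for replicate number, at an adjusted p under 0.05 among 54 pairs of a tested member and a treatment. Of all 12591 genes tested, 17.7% were called with vilanterol, 18.4% with vilanterol + RNO and 15.8% with ONO 1 uM + RNO, so 2, 2 and 1 of 6 members are not read as particular to these genes. GNAS, ADCY3, ADCY6 and ADCY7 passed in none of the 9 comparisons with vehicle in that fit. With replicate number as an added term, ADCY6 was called in 6 of the 8 comparisons where the numbers paired the libraries. There 5.11% to 32% of all genes were called. Without vehicle replicate 3 as well, 4 of these calls remained, where 4.86% to 26.8% of all genes were called. Of the 5 calls, 4 were lost when a single vehicle library was left out.

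Vehicle replicate 3 was unlike the other 39 libraries. Its log2 values were taken as deviations from the mean of the other libraries of its group. They ran against transcript length over 11958 genes with a Spearman rho of -0.59, while rho in the other 39 libraries lay between -0.3 and 0.41. The highest values, 0.41 and 0.38, were those of vehicle replicates 2 and 1, whose deviations are from a mean that includes replicate 3. Outside vehicle the highest rho was 0.27 (vilanterol replicate 2). Vehicle replicate 3 had the lowest level of all 40 libraries for ADCY3, ADCY6, ADCY9 and ADCY1. The longest annotated transcripts of the tested members ran from 4029 bases (GNAS) to 12503 bases (ADCY1), against a median of 3605 bases over genes. The part of this library's length relation in the members' results was not tested. Each of the 5 calls above is given with and without the library. Keratins mark the line as epithelial (KRT17 at a mean of 706 TPM, KRT8 at 359 TPM and KRT18 at 292 TPM), but the epithelial adhesion genes CDH1 and EPCAM had means of 0.745 and 0.265 TPM, and COL1A1, a collagen gene of fibroblasts, had a mean of 495 TPM. Of the epithelial markers 6 of 9 were in the table, summing to 847 to 2223 TPM. For fibroblasts 5 of 7 were, summing to 452 to 633 TPM, mostly COL1A1. No marker of ciliated or secretory cells was among the genes analysed. Of the leukocyte markers 2 of 6 were in the table, summing to 11 to 15.9 TPM, mostly CD68, and the 3 of 4 endothelial markers present summed to at most 0.8 TPM. In bulk RNA, fewer cells that express a gene and less RNA per cell cannot be told apart.

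**Figure D1:**
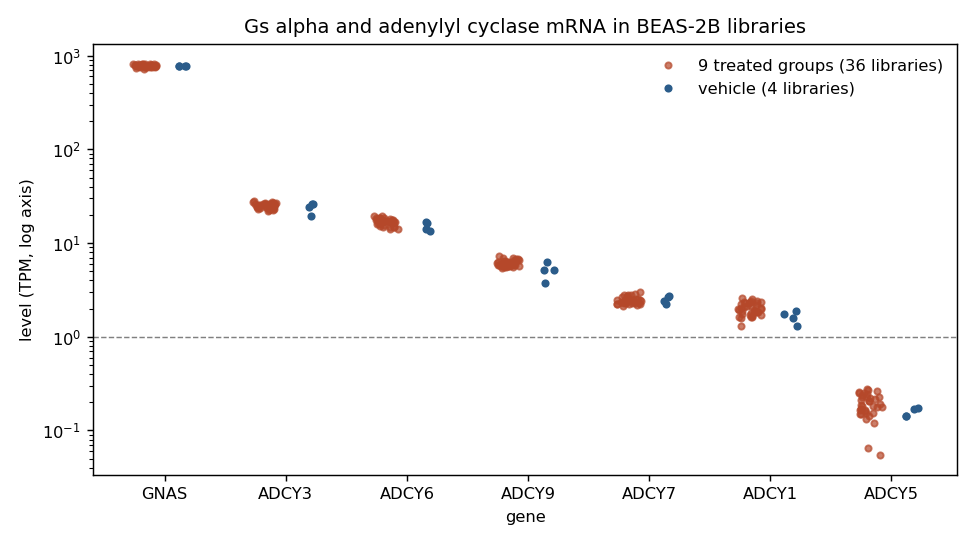
Level of each gene (TPM, log axis) in the 36 treated libraries and, to their right, the 4 vehicle libraries, 1 point per library. GNAS lay between 729 and 824 TPM, the 5 tested cyclases between 1.29 and 27.9 TPM, and ADCY5 below the dashed line at 1 TPM.

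GNAS was by far the most abundant member, and its level barely varied. Over the 40 libraries it ran from 729 to 824 TPM with a median of 782, which ranked it at place 122 of 15788 genes by mean. Its coefficient of variation was 2.96%, against a median of 7.66% over the genes tested, and 1.37% of those genes had a lower one. The symbol covers several products of the locus, among them Gs alpha, XL alpha s and NESP55, and the gene-level value does not separate them. A partner antisense gene lies at the locus, and no source used here states whether strand was used in counting.

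The cyclases followed in a fixed order of length-scaled level. ADCY3 (median 25.1 TPM, range 19.5 to 27.9) was above ADCY6 (16.8, 13.6 to 19.5) in 40 of 40 libraries, by a ratio of means of 1.49, and ADCY6 was above ADCY9 (5.98, 3.75 to 7.28) in 40 of 40 by 2.79. ADCY9 was above ADCY7 (2.43, 2.12 to 2.98) in 40 of 40. ADCY7 and ADCY1 (1.92, 1.29 to 2.6) were the only neighbours not separated: ADCY7 was higher in 36 of 40 libraries, and their values overlapped in 6 of 10 groups. ADCY5 had a median of 0.18 TPM (0.0544 to 0.277). ADCY3 and ADCY6 together made up between 78.1% and 82.1% of the summed cyclase level (median 79.8%), ADCY9 between 9.22% and 12.8%, ADCY7 between 3.86% and 5.9% and ADCY1 between 2.68% and 4.69%. GNAS mRNA exceeded the summed cyclases 14.8-fold at the median library. That ratio averaged 14.4 ± 0.553 with vilanterol + RNO, 15.1 ± 0.422 with vilanterol and 16.2 ± 2.02 with vehicle (SD, n = 4 each). The vehicle mean includes vehicle replicate 3, where GNAS was 773 TPM and the summed cyclases 40.7 TPM. Its ratio of 19 was the highest of the 40 libraries.

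GNAS group means ran from 762 TPM (ONO 0.1 nM + RNO) to 803 TPM (vilanterol), and no treatment was called against vehicle without the block. It had 783, 786, 758 and 807 TPM with vilanterol + RNO and 769, 783, 741 and 759 TPM with RNO alone. It had 797, 820, 771 and 824 TPM with vilanterol, 782, 805, 768 and 817 TPM with ONO 1 uM, and 779, 785, 773 and 780 TPM with vehicle. Every one of these groups overlapped vehicle. Against vehicle the 9 log2 fold changes lay between -0.03 and 0.04, the 95% intervals between -0.10 and 0.11, and the adjusted p from limma between 0.39 and 0.99. The SD of the treated groups was 17.7 to 28.3 TPM, against 4.86 TPM in vehicle. With the block and without vehicle replicate 3, vilanterol gave a log2 fold change of 0.06 for GNAS (adjusted p = 0.0052), and with the block alone an adjusted p of 0.059.

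ADCY9 gave the most calls. It had 5.94, 6.8, 6.35 and 6.98 TPM with vilanterol + RNO and 5.66, 7.28, 6.54 and 6.46 TPM with ONO 1 uM + RNO. With vilanterol it had 6.09, 6.84, 5.83 and 6.14 TPM, and with vehicle 5.13, 6.27, 3.75 and 5.18 TPM. The highest vehicle library, replicate 2, overlapped each treated group, and replicate 3 lay well below the other vehicle libraries. ADCY9 averaged 6.52 ± 0.467 TPM with vilanterol + RNO and 5.08 ± 1.03 TPM with vehicle (SD, n = 4 each), a log2 fold change of 0.32 with a 95% interval of 0.15 to 0.49 and an adjusted p of 0.0044 in limma. With ONO 1 uM + RNO it averaged 6.48 ± 0.662 TPM, against the same vehicle mean (log2 fold change 0.31, 0.15 to 0.48, adjusted p = 0.0066 in limma). With vilanterol it averaged 6.23 ± 0.431 TPM (0.26, 0.10 to 0.43, adjusted p = 0.021 in limma). The other 6 treatments had means of 5.82 to 6.16 TPM and adjusted p-values of 0.11 to 0.8.

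Without vehicle replicate 3 the ADCY9 difference shrank and 2 of its 3 calls were lost. The log2 fold change became 0.21 with vilanterol + RNO (adjusted p = 0.049 in limma, with 14.9% of all genes called), 0.20 with ONO 1 uM + RNO (adjusted p = 0.072, 11.9% of genes) and 0.15 with vilanterol (adjusted p = 0.19, 14.3% of genes). The vilanterol call was also lost without vilanterol replicate 2 (log2 fold change 0.22, adjusted p = 0.089). Leaving out vehicle replicate 2 instead added calls of ADCY9 for ONO 1 nM (adjusted p = 0.018), ONO 1 uM (0.0086), ONO 0.1 nM + RNO (0.038) and ONO 1 nM + RNO (0.015). The share of all genes called in that fit is not given, so these calls are not read as particular to ADCY9.

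**Figure D2:**
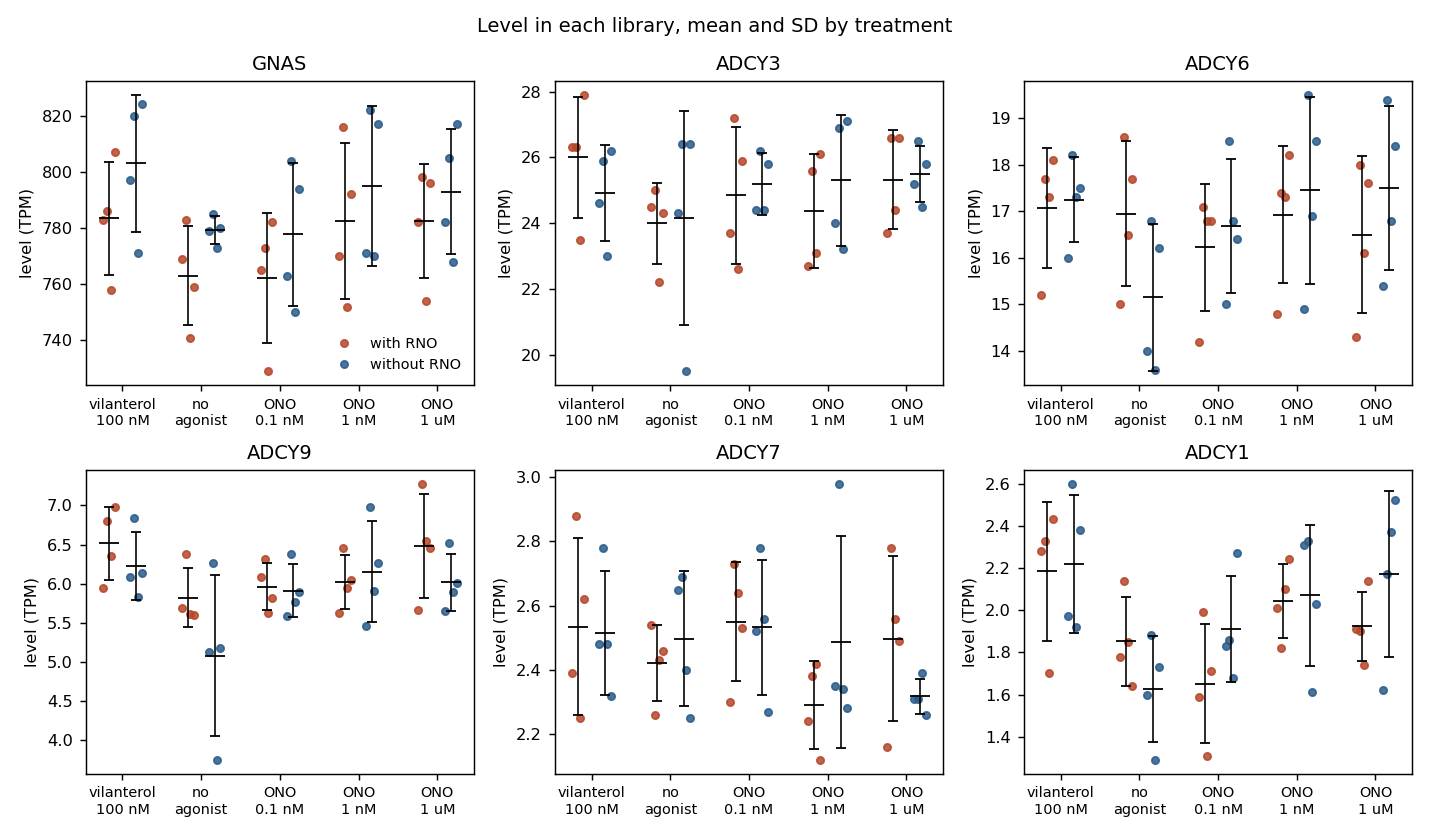
Level (TPM) of the 6 tested genes in each library by treatment, with RNO on the left and without RNO on the right of each position (no agonist without RNO is vehicle); bars show mean ± SD, n = 4. For ADCY9 all 9 treated means (5.82 to 6.52 TPM) lie above the vehicle mean of 5.08 TPM, with 1 vehicle library at 3.75 TPM.

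The replicate numbers carried a large part of the variation in these genes. Number explained 68.5% of the log2 variance of ADCY6, 63.3% of ADCY3, 56.9% of GNAS, 34.2% of ADCY9, 31.2% of ADCY7 and 22.6% of ADCY1, against a median of 24.8% over all genes tested. Group explained 20.1%, 13.1%, 28.8%, 40.7%, 19.2% and 40.6% of the same genes, against a median of 26%. Replicate 3 was the lowest of its group for GNAS in 10 of 10 groups, replicate 1 was the lowest for ADCY6 in 9 of 10, and replicate 2 was the highest for ADCY9 in 9 of 10. In 8 of the 9 comparisons with vehicle the same-numbered libraries deviated together, and there a fit with replicate number as an added term (a block) is given where it changes a call.

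**Figure D3:**
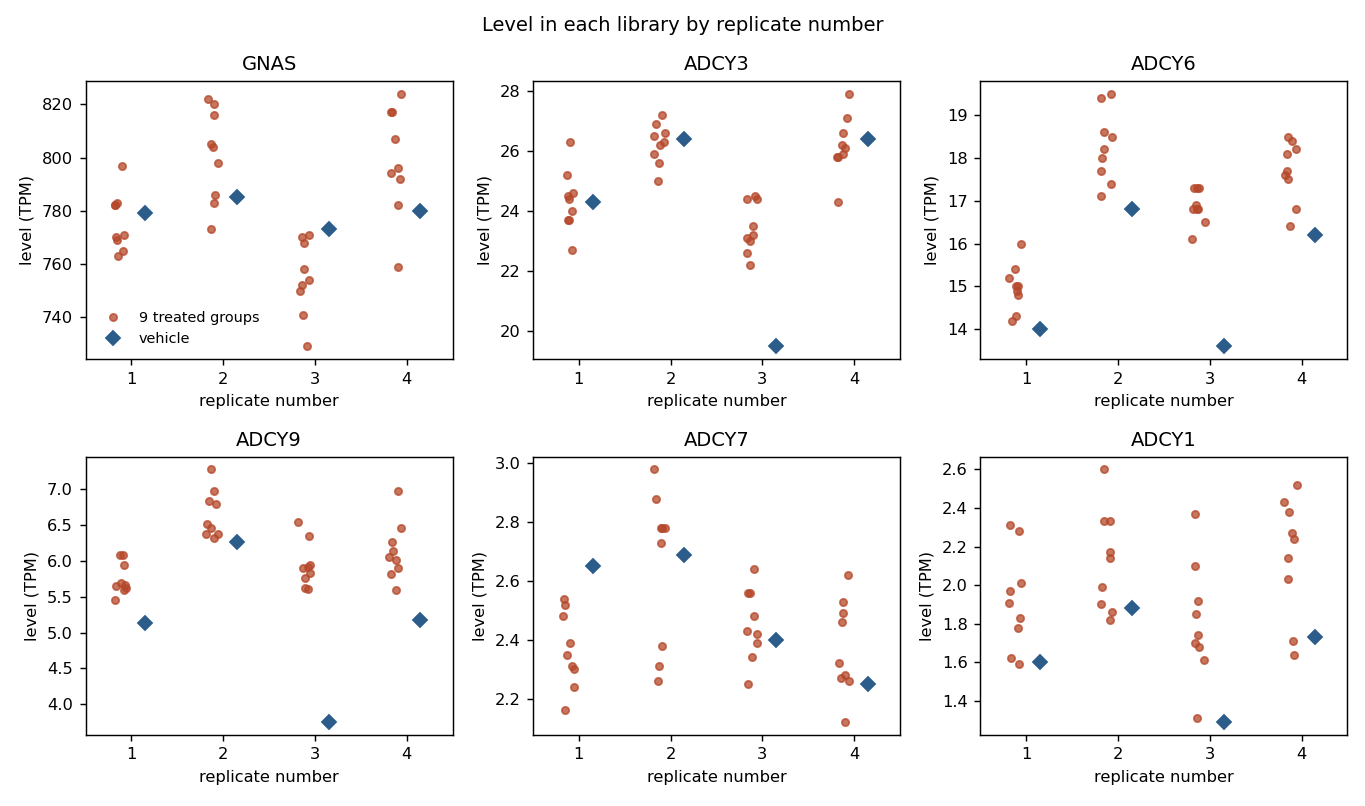
Level (TPM) in each library by replicate number, treated libraries as circles and the vehicle library of the same number as a diamond to their right. For ADCY6 and ADCY9 the vehicle library is the lowest of the 10 libraries at each of the 4 numbers.

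Compared within a replicate number, ADCY6 and ADCY9 had a higher value in every treated library than in vehicle. For both genes 36 of 36 treated libraries exceeded the vehicle library of the same number, so that vehicle was the lowest of 10 at all 4 numbers. Of all genes tested, 0.58% showed that pattern. For ADCY1 31 of 36 did so, for ADCY3 21, for ADCY7 20 and for GNAS 19. The 9 comparisons share the 4 vehicle libraries and are not independent of each other, and this count was chosen after its values were seen.

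ADCY6, a Gi-inhibited and calcium-inhibited isoform, had no call without the block. It had 16, 18.2, 17.3 and 17.5 TPM with vilanterol, 15.4, 19.4, 16.8 and 18.4 TPM with ONO 1 uM, and 14, 16.8, 13.6 and 16.2 TPM with vehicle. The groups overlapped, but each treated value lay above the vehicle value of its own number. ADCY6 averaged 17.5 ± 1.8 TPM with ONO 1 uM and 15.1 ± 1.62 TPM with vehicle (SD, n = 4 each), with a log2 fold change of 0.20 (95% interval 0.02 to 0.38, adjusted p = 0.2 in limma) and an adjusted p of 0.00016 with the block. With vilanterol the log2 fold change was 0.18 (0.00 to 0.36, adjusted p = 0.16), and the block gave an adjusted p of 0.00026. The block also called ADCY6 for vilanterol + RNO (adjusted p = 0.00069), ONO 1 nM (0.00092), RNO alone (0.012) and ONO 1 uM + RNO (0.016). Blocked fits call more of all genes: 16.6% with ONO 1 uM, 31.2% with vilanterol, 32% with vilanterol + RNO, 8.47% with ONO 1 nM, 5.11% with RNO and 29.7% with ONO 1 uM + RNO. With the block and without vehicle replicate 3, 4 of these 6 calls remained: ONO 1 uM (log2 fold change 0.15, adjusted p = 0.0015), vilanterol (0.13, 0.0026), vilanterol + RNO (0.12, 0.007) and ONO 1 nM (0.14, 0.0076). RNO alone (adjusted p = 0.084) and ONO 1 uM + RNO (0.13) were not called there. That fit called 14.3%, 26.8%, 26.3%, 4.86%, 2% and 23.1% of all genes for the 6 treatments in the same order.

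The block likewise called ADCY9 in 6 of the 8 paired comparisons, adding ONO 1 nM (adjusted p = 0.0055 in limma), ONO 1 uM (0.0057) and ONO 0.1 nM + RNO (0.024, with 5.12% of all genes called) to the 3 calls above. With the block and without vehicle replicate 3, it remained called for vilanterol + RNO (log2 fold change 0.22, 95% interval 0.14 to 0.30, adjusted p = 8.9e-05), ONO 1 uM + RNO (0.21, 0.13 to 0.29, 0.00018), vilanterol (0.16, 0.08 to 0.24, 0.0027), ONO 1 nM (0.14, 0.06 to 0.23, 0.031) and ONO 1 uM (0.12, 0.04 to 0.20, 0.043). ONO 0.1 nM + RNO was not (0.11, adjusted p = 0.18, with 3.43% of all genes called). RNO alone and ONO 0.1 nM were not called for ADCY9 with the block, with adjusted p-values of 0.058 and 0.16.

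**Figure D4:**
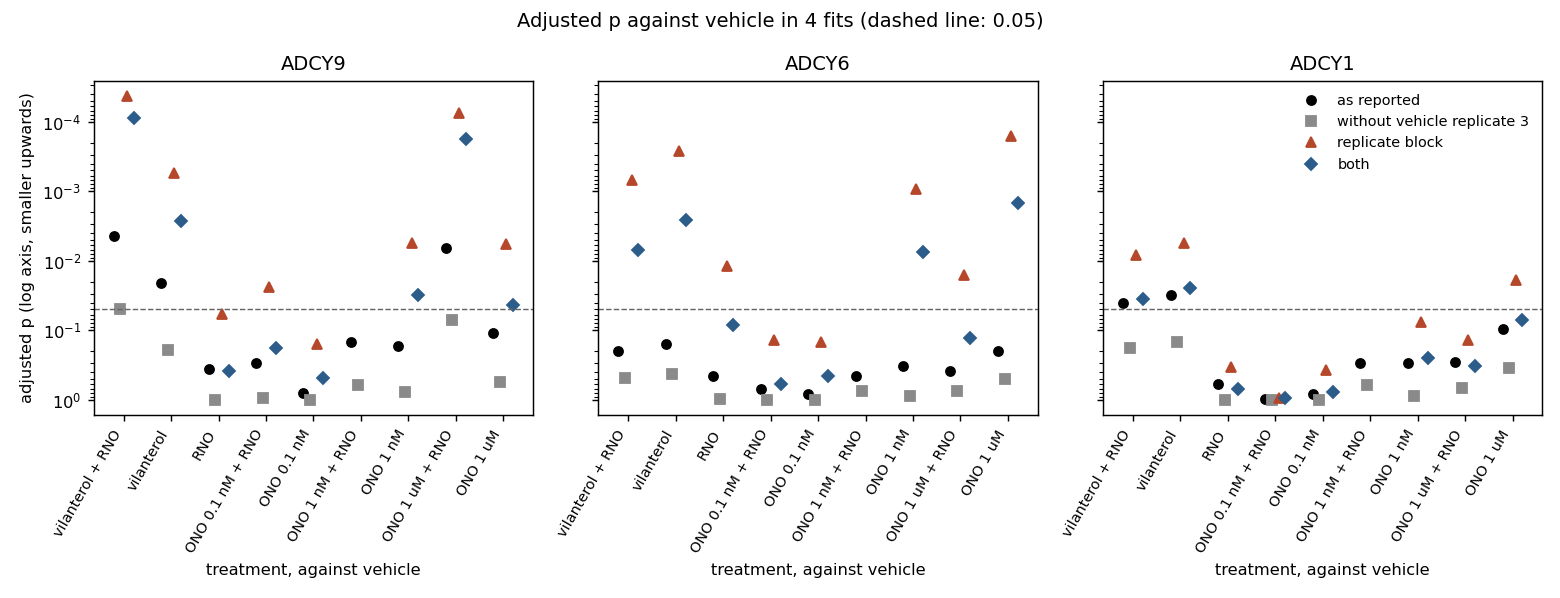
Adjusted p against vehicle (log axis, smaller values upwards) of ADCY9, ADCY6 and ADCY1 for each treatment in 4 fits. The dashed line is at 0.05. No blocked values are drawn for ONO 1 nM + RNO, where not every same-numbered pair had deviations correlated above 0.1. ADCY9 with vilanterol + RNO is past the line in all 4 fits, from 4.3e-05 with the block to 0.049 without vehicle replicate 3.

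ADCY1, a calmodulin-stimulated isoform best known from neurons, was low and the most variable of the tested members, with a coefficient of variation of 16.3%. It had 1.97, 2.6, 1.92 and 2.38 TPM with vilanterol, 2.28, 2.33, 1.7 and 2.43 TPM with vilanterol + RNO, and 1.6, 1.88, 1.29 and 1.73 TPM with vehicle. Every vilanterol library lay above every vehicle library, a separation shown by 14.9% of genes tested in that comparison. With vilanterol + RNO 3 of 4 did so. ADCY1 averaged 2.22 ± 0.328 TPM with vilanterol and 1.62 ± 0.253 TPM with vehicle (SD, n = 4 each), a log2 fold change of 0.30 with a 95% interval of 0.10 to 0.49 and an adjusted p of 0.031 in limma. With vilanterol + RNO it averaged 2.19 ± 0.331 TPM (log2 fold change 0.28, 0.08 to 0.48, adjusted p = 0.04 in limma). The log2(value + 1) scale understates changes at such levels.

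Both ADCY1 calls were lost without vehicle replicate 3, with log2 fold changes of 0.23 (vilanterol, adjusted p = 0.15 in limma) and 0.22 (vilanterol + RNO, 0.18). They were also lost without vehicle replicate 1 (0.051 and 0.062). The vilanterol call was lost without vilanterol replicate 2 (0.13) or 4 (0.082), and the vilanterol + RNO call without replicate 1 (0.084), 2 (0.11) or 4 (0.12) of that group. With the block and without vehicle replicate 3 they were kept (0.26, adjusted p = 0.025, and 0.25, adjusted p = 0.035). ONO 1 uM gave 1.62, 2.17, 2.37 and 2.52 TPM, against the vehicle values above. Its log2 fold change of 0.27 had an adjusted p of 0.097, of 0.02 without ONO 1 uM replicate 1, of 0.019 with the block, and of 0.072 with the block and without vehicle replicate 3.

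As ADCY1 had calls and a promoter entry, its promoter windows are shown, from 250 bases before to 50 after each of 2 RefSeq start sites (GRCh38.p14, plus strand). The windows overlap, and the data do not say which start site is used. The cAMP response element TGACGTCA and its core, TGACG on either strand (CGTCA on the printed one), were searched, and capitals mark the core.
ADCY1, upstream start, chr7:45573890-45574189: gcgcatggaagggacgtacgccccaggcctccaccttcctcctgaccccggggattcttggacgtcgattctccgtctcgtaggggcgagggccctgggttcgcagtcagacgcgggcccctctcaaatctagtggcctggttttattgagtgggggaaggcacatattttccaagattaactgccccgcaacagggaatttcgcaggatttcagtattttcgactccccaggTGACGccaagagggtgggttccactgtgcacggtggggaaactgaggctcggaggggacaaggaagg
ADCY1, downstream start, chr7:45574118-45574417: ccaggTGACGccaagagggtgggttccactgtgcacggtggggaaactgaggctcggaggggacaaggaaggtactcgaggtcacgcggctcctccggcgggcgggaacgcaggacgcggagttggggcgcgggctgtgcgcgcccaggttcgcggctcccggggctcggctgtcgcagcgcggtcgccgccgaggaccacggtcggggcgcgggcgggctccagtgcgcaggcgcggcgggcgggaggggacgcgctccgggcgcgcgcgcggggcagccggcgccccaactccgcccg
Both windows hold the same single core, 17 bases before the upstream start site. Of the 7 members, 5 had an entry, with 13 windows in all (ADCY1, ADCY3, ADCY5, ADCY7 and GNAS). None of the 13 held TGACGTCA, and 6 held the core, in ADCY1, ADCY3 and GNAS. Of 35116 promoter windows of the same length, 1.85% held TGACGTCA and 24.6% held the core. A match describes letters in a window and nothing about binding.

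ADCY3, the calmodulin-regulated isoform that was the most abundant cyclase here, had no call without the block. It had 26.3, 26.3, 23.5 and 27.9 TPM with vilanterol + RNO and 24.3, 26.4, 19.5 and 26.4 TPM with vehicle, so the groups overlapped. Its log2 fold changes against vehicle lay between 0.00 and 0.11 with intervals from -0.15 to 0.25 and adjusted p-values of 0.31 to 1 in limma. The block called ADCY3 for vilanterol + RNO (adjusted p = 0.035), which was not so without vehicle replicate 3 (log2 fold change 0.05, adjusted p = 0.32).

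ADCY7, the isoform raised by beta-gamma subunits, was between 2.12 and 2.98 TPM and had no call with or without the block. Its log2 fold changes against vehicle ran from -0.09 to 0.02, with intervals from -0.22 to 0.15 and adjusted p-values of 0.57 to 0.99 in limma. ADCY5, the other Gi-inhibited isoform, was too low for the fit and was compared by an exact permutation test. It had 0.207, 0.214, 0.239 and 0.27 TPM with ONO 1 uM, 0.277, 0.192, 0.204 and 0.211 TPM with vilanterol + RNO, and 0.173, 0.168, 0.143 and 0.142 TPM with vehicle. Neither treated group overlapped vehicle, as was so for 8.38% of tested genes with ONO 1 uM and 14.8% with vilanterol + RNO. Each gave a two-sided exact permutation p of 0.0286, the smallest that 4 against 4 libraries allow, and a Benjamini-Hochberg value of 0.129 over the 9 treatments. Neither passed, but separation in these treatments alone cannot bring that value under 0.05, so the test could not call them. ADCY5 values this low rest on few reads, and their depth is unknown.

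**Figure D5:**
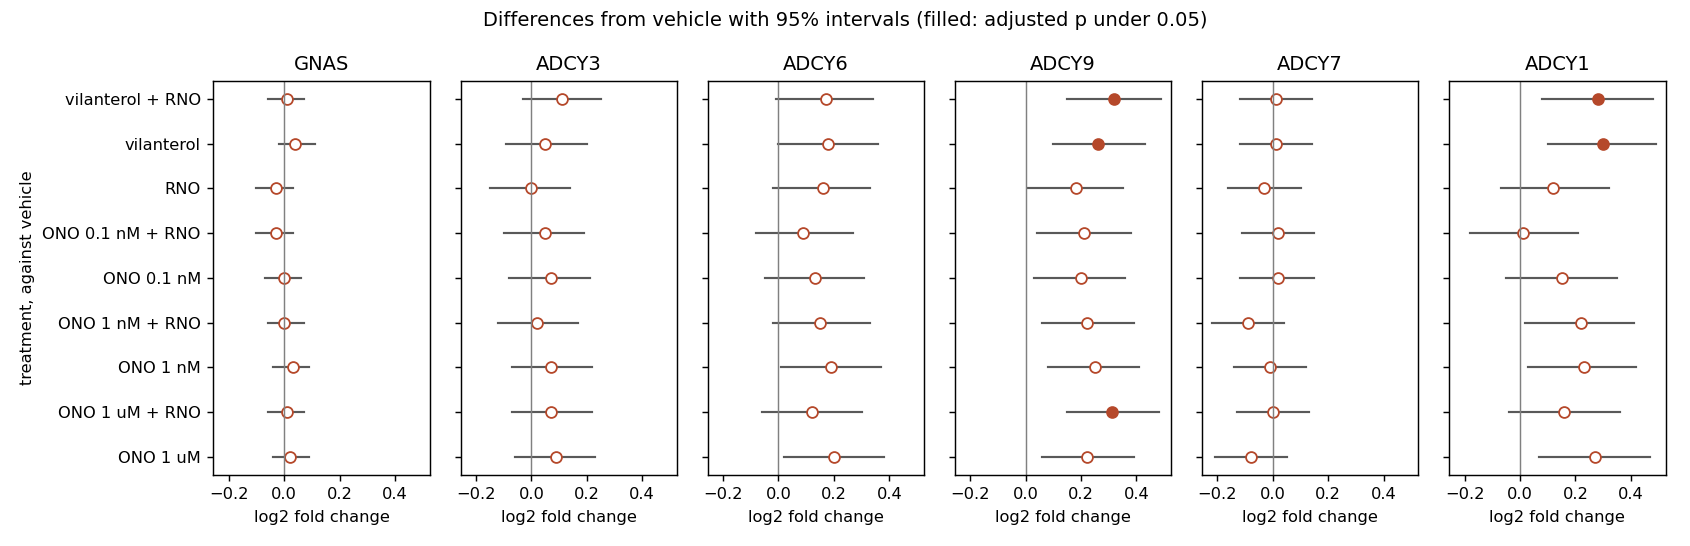
Log2 fold change against vehicle on the log2(TPM + 1) scale of the 6 tested genes (columns) for 9 treatments (rows), with 95% intervals from limma; filled circles have an adjusted p under 0.05. The 5 filled circles are ADCY9 with vilanterol + RNO, vilanterol and ONO 1 uM + RNO, and ADCY1 with vilanterol + RNO and vilanterol.

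Where members were called, the median log2 fold change of the 6 was 0.11 with vilanterol, 0.14 with vilanterol + RNO and 0.10 with ONO 1 uM + RNO, and over all genes tested it was -0.01 in each. With ONO 1 uM it was 0.15 over the 6 and 0.00 over all genes. All these medians include vehicle replicate 3. Without it, the ONO 1 uM log2 fold change went from 0.09 to -0.01 for ADCY3 and from 0.20 to 0.15 for ADCY6. It went from 0.22 to 0.11 for ADCY9 and from 0.27 to 0.20 for ADCY1. It was 0.02 in both fits for GNAS, and -0.08 and -0.09 for ADCY7.

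In the remaining comparisons with vehicle limma called 0 of 6 members. The share of all genes called was 0.238% with RNO alone, 0% with ONO 0.1 nM, 1.01% with ONO 1 nM, 7.21% with ONO 1 uM, 1.12% with ONO 0.1 nM + RNO and 3.45% with ONO 1 nM + RNO. Members with an unadjusted p under 0.05 numbered 1, 1, 3, 3, 1 and 2 of 6 in that order. The shares above are for adjusted p. That of all genes at the unadjusted threshold is not given, so these counts are not read as particular to the members. With the block 1 member was called with RNO, 0 with ONO 0.1 nM (0.0794% of all genes), 2 with ONO 1 nM, 3 with ONO 1 uM, 1 with ONO 0.1 nM + RNO, 3 with vilanterol, 4 with vilanterol + RNO and 2 with ONO 1 uM + RNO. In a moderated F test over the 10 groups limma called no member (adjusted p of 0.14 for ADCY9, 0.16 for ADCY1 and 0.72 to 1 for the others), where 17.5% of genes were called. With the block that test called ADCY6 (adjusted p = 0.0017), ADCY9 (0.0022), GNAS (0.01) and ADCY1 (0.021), where 33.7% of genes were.

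The means of ADCY9 and ADCY1 over the ONO concentrations were as follows. ADCY9 averaged 5.08 ± 1.03, 5.91 ± 0.339, 6.16 ± 0.64 and 6.02 ± 0.368 TPM at 0, 0.1 nM, 1 nM and 1 uM ONO, and 5.82 ± 0.379, 5.96 ± 0.301, 6.02 ± 0.345 and 6.48 ± 0.662 TPM over the same doses with RNO (SD, n = 4 each). ADCY1 averaged 1.62 ± 0.253, 1.91 ± 0.256, 2.07 ± 0.336 and 2.17 ± 0.394 TPM without RNO and 1.85 ± 0.212, 1.65 ± 0.279, 2.04 ± 0.18 and 1.92 ± 0.163 TPM with it. No test of trend was made.

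Adding RNO to an agonist moved no member past the threshold. Over 4 such comparisons and 24 pairs of member and comparison, the log2 fold changes of the combination against the agonist alone lay between -0.14 and 0.09, their 95% intervals between -0.33 and 0.26, and the lowest adjusted p from limma was 0.96. ADCY9 averaged 6.48 ± 0.662 TPM with ONO 1 uM + RNO and 6.02 ± 0.368 TPM with ONO 1 uM (log2 fold change 0.09, -0.08 to 0.26). No member had an unadjusted p under 0.05, and all genes were called at 0.723% (ONO 0.1 nM), 0.238% (1 nM), 0.604% (1 uM) and 0% (vilanterol).

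Adding an agonist to RNO, a contrast that uses no vehicle library, also gave 0 calls of members in limma, and 0 at an unadjusted p under 0.05. All genes were called at 0.627%, 1.68% and 12% for ONO at 0.1 nM, 1 nM and 1 uM, and at 15.5% for vilanterol. ADCY9 averaged 6.52 ± 0.467 TPM with vilanterol + RNO and 5.82 ± 0.379 TPM with RNO (log2 fold change 0.14, 95% interval -0.03 to 0.31, adjusted p = 0.3). With ONO 1 uM + RNO it averaged 6.48 ± 0.662 TPM, against the same RNO mean (0.13, -0.03 to 0.30, adjusted p = 0.4, and 0.11 with the block). Once vehicle replicate 3 was out of the pooled spread, the blocked fit called ADCY9 for ONO 1 uM + RNO against RNO (0.13, 0.06 to 0.21, adjusted p = 0.0079), with 25.7% of genes called. Blocked values for vilanterol + RNO against RNO, where the numbers did not pair the libraries, are in the closing section.

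The interaction of agonist and RNO asks whether their joint effect departs from the sum of their separate effects on the log2 scale. Limma called 0 of 6 members for each of the 4 agonist treatments, with 0.135%, 0%, 0.0635% and 0.00794% of genes called for ONO at 0.1 nM, 1 nM, 1 uM and vilanterol. No unadjusted p was under 0.05. The estimates lay between -0.26 and 0.10, with intervals from -0.54 to 0.29. ADCY6 had an estimate of -0.20 for ONO 0.1 nM (-0.45 to 0.06, adjusted p = 0.78). The block called it (adjusted p = 0.036, with 2.57% of genes called). With the block and without vehicle replicate 3 the estimate was -0.15 (adjusted p = 0.064). Without the block, ADCY6 had estimates of -0.19 for ONO 1 nM, -0.24 for ONO 1 uM and -0.17 for vilanterol (adjusted p of 0.61, 0.66 and 0.89 in limma). Blocked fits also called ADCY6 for ONO 1 nM and ONO 1 uM, with the values in the closing section.

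The EP4 and β2-adrenoceptor agonists at their highest concentrations gave no called difference in these genes. ONO 1 uM against vilanterol gave 0 calls among the 6 (2.14% of all genes), and ONO 1 uM + RNO against vilanterol + RNO also gave 0 (0% of all genes), with no unadjusted p under 0.05. The 12 log2 fold changes lay between -0.12 and 0.03 and their intervals between -0.32 and 0.19. ADCY9 averaged 6.02 ± 0.368 TPM with ONO 1 uM and 6.23 ± 0.431 TPM with vilanterol. ADCY1 averaged 2.17 ± 0.394 TPM with ONO 1 uM and 2.22 ± 0.328 TPM with vilanterol (SD, n = 4 each). Intervals of this width do not show that the agonists act alike on the members.

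Some genes that act beside the members in the pathway moved much more. Of 20 tested regulators and scaffolds of the cyclases, limma called 5 higher and 2 lower with vilanterol, against vehicle, 6 and 1 with vilanterol + RNO, 5 and 1 with ONO 1 uM + RNO, and 3 and 0 with ONO 1 uM. Of all genes tested, 9.69% were higher and 7.97% lower with vilanterol, 10% and 8.44% with vilanterol + RNO, 8.92% and 6.86% with ONO 1 uM + RNO, and 4.19% and 3.02% with ONO 1 uM. RGS2, an RGS protein known to restrain G protein signalling and some cyclases, averaged 80.8 ± 21.8 TPM with vilanterol and 6.33 ± 0.556 TPM with vehicle (12.8-fold, adjusted p = 1.3e-14). AKAP12, a protein kinase A scaffold that binds the β2-adrenoceptor, averaged 127 ± 7.03 TPM with vilanterol and 40.4 ± 6.01 TPM with vehicle (3.15-fold, adjusted p = 3.3e-13). The protein kinase C isoform PRKCE averaged 8.64 ± 0.373 TPM with vilanterol and 4.99 ± 0.65 TPM with vehicle (1.73-fold, adjusted p = 7.2e-11). AKAP5, a scaffold that brings protein kinase A to membrane cyclases, averaged 4.09 ± 0.515 TPM with vilanterol and 3.04 ± 0.391 TPM with vehicle (1.35-fold, adjusted p = 0.011), and all 4 calls held without vehicle replicate 3. The vilanterol calls of CAV1, which encodes caveolin, and PRKCA, a protein kinase C isoform, named after their values were seen, were lost without it (adjusted p of 0.19 and 0.21).

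The other G protein subunits and their chaperones gave few calls: of 22 tested, 0 were called by limma with vilanterol against vehicle, 1 higher and 1 lower with vilanterol + RNO, and 1 higher with ONO 1 uM + RNO. Of all genes tested, 17.7%, 18.4% and 15.8% were called in either direction in that order. With vilanterol 6 of the 22 were called with the block, 5 higher and 1 lower, where 31.2% of all genes were called. The chaperone RIC8A averaged 68.7 ± 4.3 TPM with vilanterol + RNO and 74.4 ± 1.57 TPM with vehicle (log2 fold change -0.12, adjusted p = 0.037, and 0.031 without vehicle replicate 3). The inhibitory subunit GNAI1 averaged 38.1 ± 0.567 TPM with vilanterol + RNO and 36 ± 1.02 TPM with vehicle (0.08, adjusted p = 0.046, and 0.027 without that library). GNB4 averaged 27.5 ± 0.699 TPM with ONO 1 uM + RNO and 25.4 ± 1.8 TPM with vehicle (0.11, adjusted p = 0.033, and 0.22 without vehicle replicate 3).

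On the receptor side, 4 of 7 tested Gs-coupled receptors were lower with vilanterol + RNO, 2 with vilanterol, 2 with ONO 1 uM + RNO and 1 with ONO 1 uM, against vehicle, and none was higher. Of all genes tested, 8.44%, 7.97%, 6.86% and 3.02% were lower in that order. PTGER4 and GPR3 lay near the mean of 1 TPM required for testing. PTGER4, which encodes EP4, averaged 1.06 ± 0.137 TPM with vilanterol and 1.57 ± 0.0977 TPM with vehicle (log2 fold change -0.32, adjusted p = 0.0078, and 0.011 without vehicle replicate 3). The orphan receptor GPR3 averaged 1.05 ± 0.368 TPM with vilanterol + RNO and 1.78 ± 0.251 TPM with vehicle (-0.45, adjusted p = 0.011, and 0.0094 without that library). The adenosine receptor ADORA2B averaged 20.2 ± 0.991 TPM with vilanterol + RNO and 23.3 ± 2.77 TPM with vehicle (-0.19, adjusted p = 0.033, and 0.2 without vehicle replicate 3).

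Among 22 tested effectors of cAMP and enzymes that remove it, 4 were higher with vilanterol, 4 with ONO 1 uM + RNO, 3 with vilanterol + RNO and 2 with ONO 1 uM, against vehicle, and none was lower. Of all genes tested, 9.69%, 8.92%, 10% and 4.19% were higher in that order. PDE4D and PDE4B, which break down cAMP, were 6.92-fold and 3.85-fold higher with vilanterol than with vehicle (adjusted p of 3e-19 and 8.3e-13). CREM, a cAMP-responsive transcription factor gene, was 1.29-fold higher (adjusted p = 0.00022). Without vehicle replicate 3 the adjusted p was 1.1e-17 for PDE4D, 2.2e-11 for PDE4B and 6.3e-05 for CREM. CRTC3, a CREB coactivator, was 1.15-fold higher (adjusted p = 0.029), a call lost without vehicle replicate 3 (0.26). The median log2 fold change with vilanterol against vehicle was 0.07 for regulators and scaffolds, 0.02 for G protein subunits, -0.17 for receptors and 0.05 for effectors and removal, against -0.01 over all genes tested.

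The rule for naming genes of like pattern covers members called in the F test without the block, and none was. As a choice made after the values were seen, the genes most like ADCY9 over the 40 libraries were LIMCH1 (Pearson r = 0.91), FOXN3 (0.9) and PXDN (0.89), with r of 0.95, 0.95 and 0.92 over the 10 group means. Those most like ADCY1 were SEMA5A (0.7), PTK7 (0.69) and STIM1 (0.69). These libraries share replicate numbers, and with the means of the numbers removed r for ADCY9 was 0.86, 0.88 and 0.88. Every r includes vehicle replicate 3, the lowest of the 40 libraries for ADCY9 and ADCY1, and the part of that library was not tested. The values describe likeness only.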

How the data were processed

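RNA was measured in 40 libraries, 4 in each of 10 groups taken from the labels. Libraries were directional poly(A) libraries sequenced with 2 kits, per the labels' protocols, and which kit each library had is not given. Per the submitters' processing notes, the tools were kallisto, sleuth and bcl2fastq 2.18.0.12, in an order not given, and the builds hg19 and GRCh37. The authors deposited a normalised signal per gene, called TPM after its label. Its column totals ran from 956888 to 1091466 rather than being equal, while the tests had been planned for TPM, and the log-scale model serves either. Read counts were not analysed here, so depth is unknown and no counting interval is given.

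Values were transformed to log2(TPM + 1). Genes averaging 1 TPM or more, 12591 in number, were fitted with 1 mean per group over all 40 libraries (limma 3.58.1 in R 4.3.3, eBayes with trend, 30 residual degrees of freedom). A call is an adjusted p under 0.05 (Benjamini-Hochberg over all genes tested, separately for each of 23 comparisons). Folds are ratios of mean TPM. ADCY5 was tested with scipy 1.17.1. Alternatives were other pseudocounts, filters, scalings, weights, variance estimates and sample sets, each library left out, and replicate number as a block. The scripts were tested on simulated data.

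The labels share replicate numbers across groups. In 17 of 19 comparisons of 2 groups, and in the interaction of ONO 0.1 nM and RNO, all same-numbered libraries had deviations correlated above 0.1, so the numbers were taken to pair the libraries there. The other comparisons have blocked values only in the closing section. Over all pairs of groups the median correlation was 0.26 for the same number (180 pairs) and -0.08 for different numbers (540 pairs). Leaving out vehicle replicate 3 together with the block was added after the data were seen.

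All members are named in every comparison. In 4 further lists (cyclase regulators and scaffolds, G protein subunits and chaperones, Gs-coupled receptors, cAMP effectors and removal) the genes named are those called in at least 1 comparison against vehicle, at most the 4 with the largest log2 fold change. Some genes of these lists enter the counts but are not reported here by name. Members and lists were chosen with earlier results of these data known. Promoter windows are RefSeq's, and transcript lengths are those of GENCODE 29.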

Additional observations from a re-analysis of the deposited data

Results flagged for a closer look

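In 70 groups of 4 libraries (7 genes in 10 groups) 3 held a library that lay far from the other 3 by Dixon's criterion, which sets the gap to the nearest library against the group's range. Chance flags about 1 in 20 groups. ADCY6 was 14.2 TPM in replicate 1 of ONO 0.1 nM + RNO, against 16.8 to 17.1 TPM in its other libraries (gap over range 0.873). Replicate 1 was also the lowest library for ADCY6 in 9 of 10 groups. ADCY9 was 6.38 TPM in replicate 2 of RNO, against 5.6 to 5.69 TPM in the others (gap over range 0.883), and replicate 2 was the highest for ADCY9 in 9 of 10 groups. ADCY7 was 2.98 TPM in replicate 2 of ONO 1 nM, against 2.28 to 2.35 TPM in the others (gap over range 0.909). Vehicle replicate 3 was not picked out by this criterion for any member.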

How the results depend on the processing

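Of 138 pairs of member and comparison, 112 were called under no setting, and 60 of those changed sign in at least 1. The other 26 were called in at least 1 setting. Of these, the 5 called as reported kept the call in 77 of 98 alternatives and lost it in 21. The others stayed uncalled in 407 of 443 alternatives and gained a call in 35, and 1 changed sign: GNAS for vilanterol + RNO against RNO had a log2 fold change of -0.02 with quantile normalization, against 0.04 as reported. The number of members called (of 6) changed as follows, and the cause was not tested unless stated. Against vehicle it was 1 for vilanterol and 1 for vilanterol + RNO at a mean of at least 5 TPM, which drops ADCY1 and ADCY7, and 1 for vilanterol with libraries rescaled to equal totals. When only the groups compared were fitted, it was 0 for vilanterol, 0 for vilanterol + RNO and 0 for ONO 1 uM + RNO. With library weights it was 0 for vilanterol and 1 for vilanterol + RNO. With the replicate block it was 1 for RNO, 2 for ONO 1 nM, 3 for ONO 1 uM, 3 for vilanterol, 1 for ONO 0.1 nM + RNO, 2 for ONO 1 nM + RNO, 2 for ONO 1 uM + RNO and 4 for vilanterol + RNO. With the block and without vehicle replicate 3 it was 2 for ONO 1 nM, 2 for ONO 1 uM, 4 for vilanterol, 1 for ONO 1 nM + RNO and 3 for vilanterol + RNO. The pairing rule, that all same-numbered pairs correlate above 0.1, was not met in some comparisons. These were ONO 1 nM + RNO against vehicle and vilanterol + RNO against RNO (3 of 4 pairs above 0.1 in each). The interactions of RNO with ONO 1 nM, ONO 1 uM and vilanterol also missed it (23 of 24 pairs above 0.1 in each). Most same-numbered libraries deviated together there too. For ONO 1 nM + RNO the 2 blocked calls were ADCY6 (log2 fold change 0.15, adjusted p = 0.0046 in limma) and ADCY9 (0.22, adjusted p = 0.0086). Without vehicle replicate 3 as well, ADCY6 stayed called (0.11, adjusted p = 0.036) and ADCY9 did not (0.12, adjusted p = 0.054). The block gave 1 call, ADCY3, for vilanterol + RNO against RNO (0.11, adjusted p = 0.04). That comparison had 3 calls with the block and without vehicle replicate 3, ADCY9 (0.14, adjusted p = 0.0038), ADCY3 (0.11, adjusted p = 0.004) and GNAS (0.04, adjusted p = 0.035), and ONO 1 uM + RNO against RNO had 1, ADCY9. The block gave 1 call of ADCY6 for the interaction with ONO 0.1 nM. It gave 1 for that with ONO 1 nM (-0.19, adjusted p = 0.048) and 1 for that with ONO 1 uM (-0.24, adjusted p = 0.007). The ONO 1 nM call was lost without vehicle replicate 3 (-0.15, adjusted p = 0.093). With the block, no member was called where RNO was added to an agonist or between the agonists. The interaction with ONO 1 uM stayed at 1 without vehicle replicate 3 (-0.19, adjusted p = 0.011). For the comparisons that missed the pairing rule, the share of all genes called by the blocked fits is not given. Their counts of members are not read as particular to these genes. Leaving out 1 library at a time gave 0 to 2 calls for vilanterol, 1 to 2 for vilanterol + RNO, and 0 to 1 each for ONO 1 nM, ONO 1 uM, ONO 0.1 nM + RNO, ONO 1 nM + RNO and ONO 1 uM + RNO, and 0 elsewhere. Depth is unknown, so how far counting error limits ADCY1, ADCY7 and ADCY5 cannot be given.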
